A study of Mus musculus with 2 samples.

Results

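The genes described here encode ligands and receptors of the Wnt, Fgf, Bmp and Hedgehog signalling pathways. They were 59 named genes, 40 ligands and 19 receptors, of 21887 protein-coding genes. The ligands were 18 Wnt, 14 Fgf, 6 Bmp and 2 Hedgehog genes, and the receptors were 10 Frizzled, 4 Fgf, 3 Bmp and 2 Hedgehog genes. Each gene was described by the H3K4me3 peaks that overlapped its annotated body or the 5 kb on either side, and ligands were set against receptors.

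Wnt proteins bind Frizzled receptors, Fgf proteins bind receptor tyrosine kinases, Bmp proteins bind paired serine/threonine kinase receptors, and Hedgehog proteins bind Ptch1, which otherwise restrains the transducer Smo. These pathways pattern the embryo and act in the development of germ cells and gonads. Bmp4 and Bmp8b induce primordial germ cells, Fgf9 promotes testis formation and Wnt4 promotes ovary formation. H3K4me3, trimethylation of lysine 4 of histone H3, marks the start sites of active genes. In germ cells and stem cells it also lies on silent developmental genes, often together with H3K27me3, a mark that was not measured here. A peak therefore shows that the mark is present, not that the gene is transcribed.

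The mark was mapped by CUT&RUN, in which an antibody directs a nuclease to cut out the chromatin it binds. The cells were mouse prospermatogonia, the fetal male germ cells, sorted at E17.5 as positive for an Oct-GFP reporter, with 130000 cells per assay and no treatment or mutation given in the labels. There was 1 H3K4me3 library with a peak list and 1 rabbit IgG library, which was not analysed here, and there were no replicates, so no test between groups was made. The list held 135064 peaks over 88.7 Mb of the mm10 genome, with a median width of 572 bp and a median of 27 fragments at the summit (9 to 316). Of genes known to mark germ cells, 7 of 8 had a peak within 1 kb of a start or end (median summit pileup 34.5 fragments) and Nanos2 had its peaks farther away. The same held for 4 of 6 Sertoli cell genes (median 37.5), 1 of 5 Leydig cell genes (median 0) and 2 of 4 endothelial genes (median 19.5), against 73.6% over all protein-coding genes. Of the Leydig cell genes, Cyp11a1 had a peak of 51 fragments within 1 kb of its start, with a fold of 9.90. Insl3 had 5 peaks of up to 49 fragments, but none within 1 kb of its start. Cyp17a1, Hsd3b1 and Star had no peak in their bodies or flanks. In those wider windows, 8 of 8 germ cell, 6 of 6 Sertoli, 2 of 5 Leydig and 4 of 4 endothelial genes had a peak, against 88.3% of all genes. These counts lie near the shares of all genes, apart from the Leydig cell genes, and say little about cell identity. A peak list does not measure the share of other cells in the sort, and in a bulk library a mark in few cells and a weak mark in all cells cannot be told apart. The part of other cells in the results below was not tested.

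Every member carried the mark in its body or flanks. Ligands had a peak in 40 of 40 genes (95% Wilson interval 91.2 to 100%) and receptors in 19 of 19 (83.2 to 100%), against 88.3% of all protein-coding genes. That window is wide, and the same windows moved by 100 kb still met a peak for 72.5% of ligands, 68.4% of receptors and 72.0% of all genes. The start was a sharper measure. A peak lay within 1 kb of the start in 38 of 40 ligands (95%, interval 83.5 to 98.6%) and in 19 of 19 receptors (83.2 to 100%), against 73.6% of all genes. The moved windows gave 12.5% of ligands, 10.5% of receptors and 16.4% of all genes. The intervals of ligands and receptors overlapped. The start was the one listed in RefSeq for 42 members, of which 27 of 28 ligands and 14 of 14 receptors were marked, against 73.3% of all genes with a listed start. For the other 17 members either annotated end counted, and 11 of 12 ligands and 5 of 5 receptors were marked, against 75.1% of such genes. Of genes 1 to 10 kb long, 12 of 12 ligands and 8 of 8 receptors were marked, against 64.7% of all genes of that length. From 10 to 50 kb these were 19 of 20 ligands and 4 of 4 receptors, against 79.9%, and above 50 kb 7 of 8 ligands and 7 of 7 receptors, against 88.4%.

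The 2 ligands without a peak at the start were both Fgf genes, and they differed from each other. Fgf1, a growth factor without a signal peptide, had a single peak in its whole window, 318 bp wide (chr18:38841045-38841362), with 18 fragments. Fgf9 had 4 peaks, and those nearest to its listed start had summits at -2074 bp and +2273 bp from it, with 52 and 49 fragments over backgrounds of 15.1 and 19.3, the second being the highest background of any member peak. For 6 of the 42 members the listed start is over 1 kb inside the annotated gene. That of Fgf9 lies 2015 bp inside the annotated gene, and the upstream peak (chr14:58070505-58070891) reaches the annotated 5′ end. Counted from the annotated 5′ end of every gene with a known strand, a choice added after the values were seen, 38 of 40 ligands and 19 of 19 receptors were again marked, against 71.4% of all genes. Fgf9 then had a peak and Wnt6 had none at that end.

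**Figure D1:**
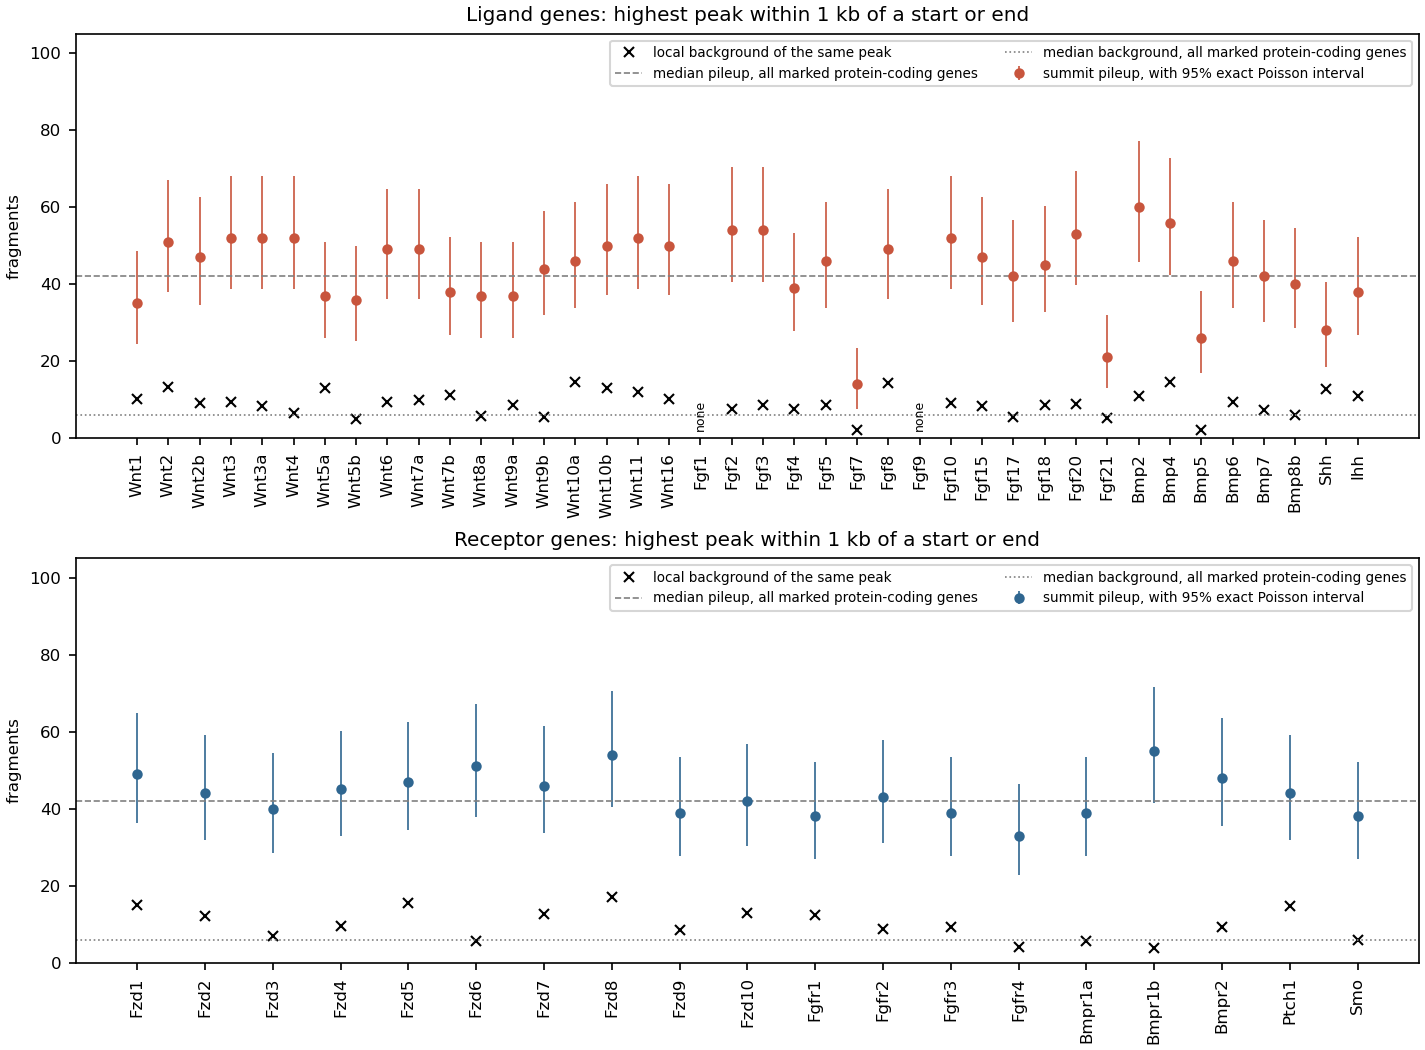
Summit pileup in fragments (circles, bars are 95% exact Poisson intervals) and local background in fragments (crosses) of the highest peak within 1 kb of a start or end, for 40 ligands above and 19 receptors below. The dashed and dotted lines are the medians of all marked protein-coding genes, 42 and 6.02 fragments; most circles sit near the dashed line, most crosses lie above the dotted line, and Fgf1 and Fgf9 have no peak there.

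Peaks at member starts were about as high as those of other genes. The highest peak within 1 kb of the start had a median of 46 fragments in marked ligands and 44 in marked receptors, against 42 in all marked genes. Each single pileup has a wide counting interval, and the 95% exact Poisson interval held the value 42 for 32 of 38 marked ligands and for 19 of 19 receptors. Fgf7, Fgf21, Bmp5 and Shh lay below it. Fgf7, the keratinocyte growth factor, had 14 fragments (7.65 to 23.5), Fgf21, a liver hormone of fasting, had 21 (13.0 to 32.1), Bmp5 had 26 (16.98 to 38.1) and Shh, the Hedgehog ligand of neural tube and limb, had 28 (18.6 to 40.5). Bmp2 and Bmp4 lay above it, with 60 (45.8 to 77.2) and 56 fragments (42.3 to 72.7). The share of all marked genes whose interval held 42 is not given here, so these counts are not read as unusual. The highest peak of any receptor, also 56 fragments, was at the annotated 5′ end of Bmpr1b, a type I Bmp receptor.

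The local background of the peak had a higher median at members than at all marked genes. The fold enrichment in the list is the summit pileup over a local background, and the steps of the background values are those of mean fragment coverage over 10 kb around the peak. It is read here as coverage of the H3K4me3 library, but peak names carry an IgG label and the use of the control in peak calling is not known, so the values may instead be IgG coverage. At marked starts this background had a median of 9.01 fragments in ligands (2.11 to 14.7) and 9.26 in receptors (3.89 to 17.05), against 6.02 in all marked genes. With similar pileups, the fold of the highest peak was lower: 4.81 in ligands and 4.19 in receptors, against 6.11 in all marked genes. A peak with a fold of at least 5 lay at the start of 16 of 40 ligands (40.0%) and 6 of 19 receptors (31.6%), against 56.7% of all genes, and anywhere in body or flanks of 29 ligands (72.5%) and 10 receptors (52.6%), against 77.8%. A background of at least 12 fragments at the start or an end was found for 8 ligands (20.0%) and 8 receptors (42.1%). The share of all genes was 2.91%, and the limit was chosen after the values were seen. Those ligands were Wnt2, Wnt5a, Wnt10a, Wnt10b, Wnt11, Fgf8, Bmp4 and Shh. Those receptors were Fzd1, Fzd2, Fzd5, Fzd7, Fzd8, Fzd10, Fgfr1 and Ptch1, so 6 of the 10 Frizzled genes were among them. Wnt5a, Wnt10a, Fgf8, Shh, Fzd2, Fzd8 and Fgfr1 have no listed start, so their values may not be those of the start. At Wnt10a the peak over the other end had a background of 9.16.

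**Figure D2:**
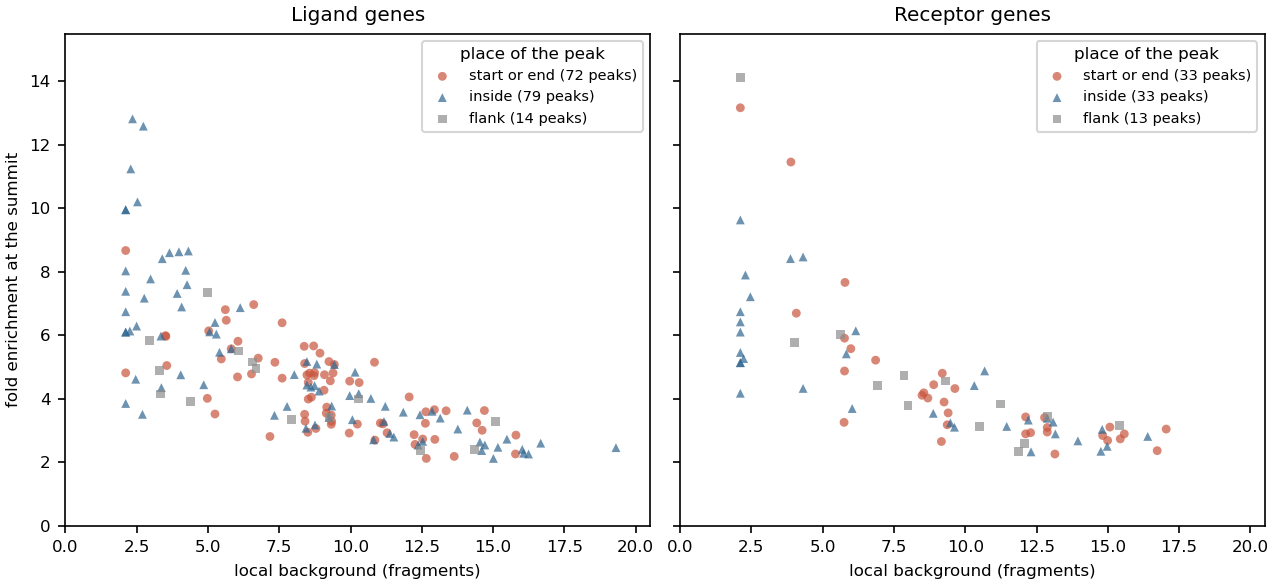
Fold enrichment at the summit against local background in fragments for each peak in the windows of ligands (left, 165 peaks) and receptors (right, 79 peaks), with the place of the peak by symbol. Folds above 10 occur only at backgrounds under 4 fragments, and peaks at starts gather at backgrounds from about 5 to 16 fragments; the fold contains the background, so the slope is partly built in.

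Around the listed start, ligands had about the same median covered length on both sides, and receptors a longer one after it. More bases were covered after than before in 15 of 28 ligands (53.6%) and 9 of 14 receptors (64.3%), against 47.1% of all genes. No test of the difference between the roles was made. For 4 of the 28 ligands and 2 of the 14 receptors the listed start lies over 1 kb inside the annotated gene. For these the 1 kb before the start is also gene body. The 2 sides were not measured from the annotated 5′ end. In 200 bp bins, coverage by peaks was highest at 500 bp before the start in ligands (73.0% of bases, 28 genes) and at 300 bp after it in receptors (68.3%, 14 genes), against 100 bp after it in all genes (58.4%, 17492 genes). The bin at 500 bp before the start was covered to 73.0% in ligands and 29.9% in receptors, against 42.4% in all genes. The median length covered in the 1 kb before the start was 585 bp in ligands and 285 bp in receptors, against 411 bp in all genes, and in the 1 kb after it 589.5 bp in ligands and 700.5 bp in receptors, against 603 bp. The first base of the start lay inside a peak in 17 of 28 ligands (60.7%, interval 42.4 to 76.4%) and 7 of 14 receptors (50%, 26.8 to 73.2%), against 57.8% of all genes.

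In both roles the mark reached farther into the gene in a larger share of members than of all genes. A peak reached the stretch from 1 to 3 kb after the start in 20 of 28 ligands (71.4%) and 10 of 14 receptors (71.4%). The share of all genes was 34.5%. All genes include those with no peak within 1 kb of the listed start, where 73.3% had one. At that window 27 of 28 ligands and 14 of 14 receptors had one. A share among marked genes alone is not given here. The mean length covered was 331 bp in ligands and 570 bp in receptors, against 135 bp in all genes. The medians were closer between the roles, 257 bp in ligands and 270 bp in receptors, against 0 bp in all genes. Among ligands Wnt1, which patterns the midbrain, had 992 bp and Wnt7a, which acts in limb and uterus, had 905 bp. Fzd7, a Frizzled of stem and progenitor cells, led the receptors with 1589 bp, followed by the Fgf receptors Fgfr3 with 1546 bp and Fgfr2 with 1166 bp. Fzd5 and Ptch1 had no covered base in the first 1 kb after their listed starts, and 1104 bp and 990 bp in the next stretch. The listed start of Ptch1 lies 7725 bp inside the annotated gene, whose 5′ end had 1435 bp covered within 1 kb.

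**Figure D3:**
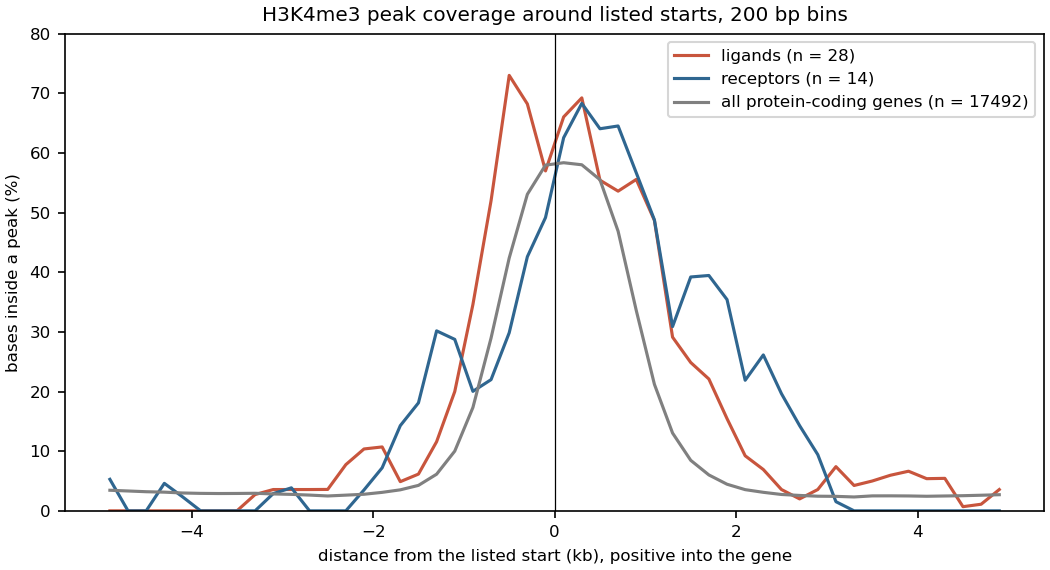
Share of bases inside a peak (%) in 200 bp bins from 5 kb before to 5 kb after the listed start (kb, positive into the gene), for ligands, receptors and all protein-coding genes with a listed start. Ligands have a maximum before the start and another after it, receptors are highest after it, and both lines stay above that of all genes from 1 to 2 kb into the gene. Listed starts over 1 kb inside the annotated gene, 6 of 42 in members, are included.

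The length covered within 1 kb of the start, of 2001 bp in all, had a median of 1269.5 bp in ligands (0 to 2001) and 1134 bp in receptors (281 to 2001), against 1117 bp in all genes. Among marked genes alone the medians were 1296 bp in ligands and 1134 bp in receptors, against 1309 bp in all. From the annotated 5′ end the order turned round, with 981 bp in ligands and 1063 bp in receptors, against 1016 bp in all genes. With all listed starts of a gene, or both ends, pooled, 2 or more separate peaks lay in 19 of 40 ligands (47.5%) and 13 of 19 receptors (68.4%). The share of all genes was 31.2%, which counts genes with no such peak, and 73.6% had one. Among marked genes alone the median number of peaks was 1.5 in ligands and 2 in receptors, against 1 in all.

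The sequences before 6 listed starts are given for members at both ends of this range. Each is the 250 bases upstream of the listed start in RefSeq's GRCm38.p6 assembly, the mm10 build, written 5′ to 3′ on the strand of the gene, with each CpG in capitals, and they are members with the largest or smallest covered length among the ligands and receptors that have a single listed start.
Fgf2 (1854 bp covered; chr3:37348403-37348652, plus strand): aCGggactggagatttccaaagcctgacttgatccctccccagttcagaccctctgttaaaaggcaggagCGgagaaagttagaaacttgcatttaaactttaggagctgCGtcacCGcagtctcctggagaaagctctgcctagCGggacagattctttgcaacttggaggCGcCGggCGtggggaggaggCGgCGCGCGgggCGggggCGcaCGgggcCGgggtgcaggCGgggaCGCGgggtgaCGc
Bmp8b (1800 bp covered; chr4:123104911-123105160, plus strand): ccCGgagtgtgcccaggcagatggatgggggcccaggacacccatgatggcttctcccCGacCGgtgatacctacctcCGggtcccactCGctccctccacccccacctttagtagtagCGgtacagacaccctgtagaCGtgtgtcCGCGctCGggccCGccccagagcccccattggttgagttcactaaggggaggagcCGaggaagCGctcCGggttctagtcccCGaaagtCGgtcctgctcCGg
Fgf9 (0 bp covered; chr14:58072436-58072685, plus strand): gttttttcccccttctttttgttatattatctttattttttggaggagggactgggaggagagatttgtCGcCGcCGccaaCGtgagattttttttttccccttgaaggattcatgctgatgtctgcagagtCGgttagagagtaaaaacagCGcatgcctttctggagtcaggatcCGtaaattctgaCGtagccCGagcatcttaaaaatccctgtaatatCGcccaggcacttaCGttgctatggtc
Fzd4 (2001 bp covered; chr7:89404116-89404365, plus strand): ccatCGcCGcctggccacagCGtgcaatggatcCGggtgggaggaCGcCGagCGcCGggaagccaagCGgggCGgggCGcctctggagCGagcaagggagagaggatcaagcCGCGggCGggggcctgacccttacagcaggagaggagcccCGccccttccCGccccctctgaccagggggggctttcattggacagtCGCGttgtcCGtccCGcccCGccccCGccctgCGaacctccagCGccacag
Fgfr4 (1300 bp covered; chr13:55152568-55152817, plus strand): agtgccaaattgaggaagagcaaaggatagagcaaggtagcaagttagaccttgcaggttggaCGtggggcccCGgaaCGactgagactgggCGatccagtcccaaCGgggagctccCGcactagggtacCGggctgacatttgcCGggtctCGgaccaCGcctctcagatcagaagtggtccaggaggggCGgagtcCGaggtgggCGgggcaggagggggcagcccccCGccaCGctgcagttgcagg
Fzd5 (281 bp covered; chr1:64737751-64738000, minus strand): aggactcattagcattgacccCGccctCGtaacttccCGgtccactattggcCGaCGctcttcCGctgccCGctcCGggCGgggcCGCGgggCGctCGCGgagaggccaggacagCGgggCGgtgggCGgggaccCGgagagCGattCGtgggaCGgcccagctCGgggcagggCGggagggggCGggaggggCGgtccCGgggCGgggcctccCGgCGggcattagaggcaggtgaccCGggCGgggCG
The covered lengths are those at listed starts, which are not always the annotated 5′ end. The listed start of Fgf9 lies 2015 bp inside the annotated gene, so its stretch lies within the gene. At the annotated 5′ end 387 bp were covered. The listed start of Bmp8b lies 853 bp inside, with 963 bp covered at the annotated 5′ end, against 1678 bp for Fgf2. The stretch of Fgf9 had 11 CpGs and a GC share of 44.8%, fewer CpGs than those of Fgf2 with 20 and Bmp8b with 17. Among receptors the order was the other way: Fzd5, the least covered, had 32 CpGs and 76.4% GC, Fzd4 had 25 and Fgfr4 had 15. The ratio of CpGs to the number expected from C and G content was 0.879 in Fgf9, 0.858 in Fgf2 and 0.645 in Bmp8b. It was 0.908 in Fzd5, 0.755 in Fzd4 and 0.607 in Fgfr4. The 2674 bp peak over the start of Fzd4 (chr7:89402859-89405532) also came within 1 kb of a start or end of the neighbouring gene Tmem135, and without peaks shared in this way Fzd4 had no peak.

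Promoter sequences were at hand for 42 of 59 members, as 250 bases before and 50 bases after the listed start. CpGs numbered a median of 27 in ligands (4 to 58) and 25 in receptors (4 to 53), against 13 in all promoters and 19 in promoters of genes with a peak at the start. The GC share was 68.8% in ligands and 68.7% in receptors, against 56.3% in all promoters and 60.3% in those of genes with a peak at the start. The motif GGGCGG, searched on both strands, occurred in 22 of 28 ligands (78.6%) and 10 of 14 receptors (71.4%), against 46.3% of all promoters and 60.7% of those with a peak. The motif TATAAA, also on both strands, occurred in 3 ligands (10.7%) and 2 receptors (14.3%), against 13.3% of all promoters and 7.90% of those with a peak. Bmp5 and Fgfr2 had the fewest CpGs, 4 each, and Wnt9a the most, 58.

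Wide domains of the mark held many member starts. Neighbouring peaks no more than 1000 bp apart were merged into domains, and the widest 5%, of 2001 bp or more, were called wide. The start or an end lay in one for 18 of 40 ligands (45.0%, interval 30.7 to 60.2%) and 9 of 19 receptors (47.4%, 27.3 to 68.3%), against 17.9% of all genes. The share depended on the gap. A gap of 500 bp gave 15 of 40 ligands and 4 of 19 receptors, against 19.5% of all genes, so receptors were then near all genes. A gap of 3000 bp gave 11 ligands and 7 receptors, against 9.58%. At 1000 bp the share also varied with gene length. It was 41.7% of ligands and 50% of receptors 1 to 10 kb long, against 11.5% of all such genes. From 10 to 50 kb it was 50% and 25%, against 16.7%, and above 50 kb 37.5% and 57.1%, against 33.4%. Among ligands the widest were those of Bmp6 with 3335 bp (chr13:38344568-38347902), Bmp2 with 3208 bp (chr2:133551906-133555113) and Wnt7a with 3011 bp (chr6:91409341-91412351). Among receptors they were those of Fzd7 with 3476 bp (chr1:59481531-59485006) and Fzd2 with 3407 bp (chr11:102603617-102607023), each joined from 4 peaks.

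The other wide domains measured from 2121 bp at Fgf20 to 2848 bp at Fgfr3. In the Wnt pathway they were at the ligands Wnt2, Wnt3a, Wnt4, Wnt6, Wnt9a and Wnt11 and at the receptors Fzd1, Fzd3 and Fzd4. In the Fgf pathway they were at Fgf3, Fgf4, Fgf5, Fgf8, Fgf10, Fgf15, Fgf18 and Fgf20 and at Fgfr2 and Fgfr3, and in the Bmp pathway at Bmp7 and at Bmpr1a and Bmpr2. Those of Fzd4, Fgf4, Fgf15, Fgf18 and Fgf20 were each 1 unbroken peak. None of the 4 Hedgehog genes was in one.

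**Figure D4:**
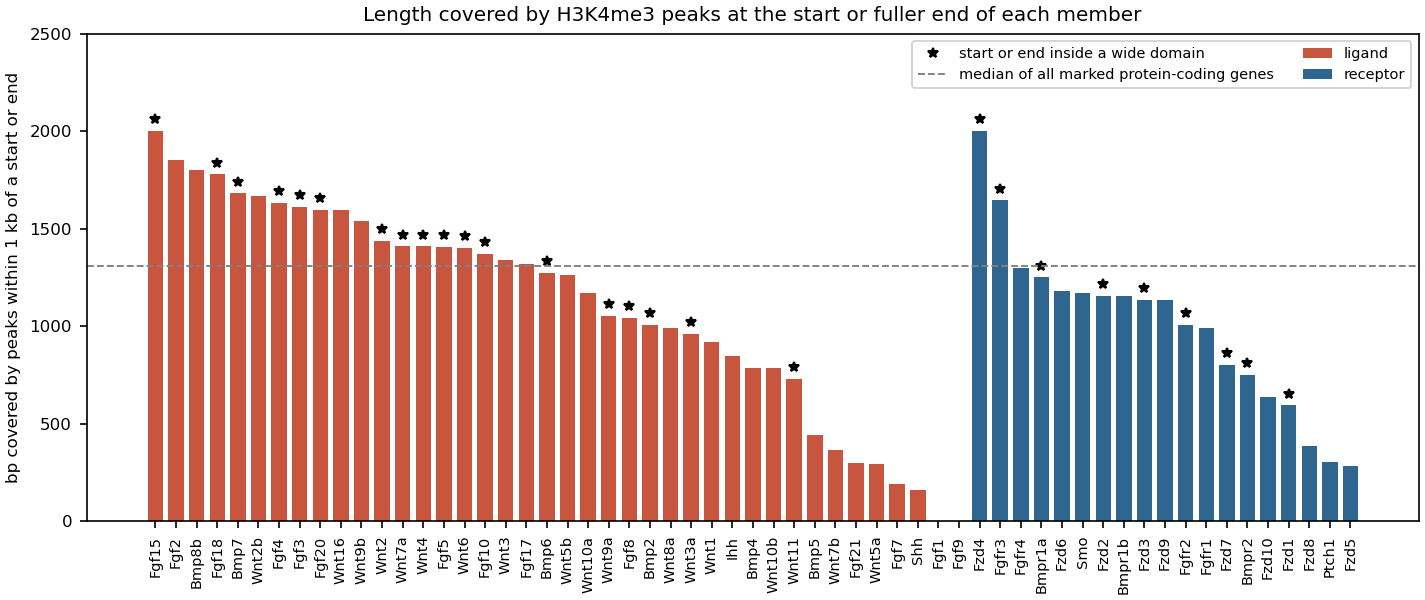
Length covered by peaks (bp, of 2001 bp) within 1 kb of the start or fuller end of each ligand (left) and receptor (right), in falling order, with a star where the start or an end is in a wide domain. The dashed line is the median of all marked protein-coding genes, 1309 bp; 18 ligands and 9 receptors carry a star, among them members such as Fzd1 and Wnt11 with short covered lengths at the start.

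Over the body and 5 kb flanks, peaks covered a median of 2660.5 bp in ligands and 2314 bp in receptors, against 1834 bp in all genes. As a share of the window this was 9.91% in ligands and 10.04% in receptors, against 5.15% in all genes, and median gene length was 22358.5 bp in ligands and 15942 bp in receptors, against 17169 bp. Among Wnt ligands, Wnt9b had the most (6591 bp), then Wnt5b (5293 bp), a ligand of cartilage and fat, and Wnt3a (5149 bp), a ligand of the early body axis. Wnt10b had the least, 1540 bp. Wnt9b and its neighbour Wnt3 share 2 of the peaks counted for each (chr11:103770822-103771868 and chr11:103773381-103774722).

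Frizzled receptors were covered over shorter lengths, from 1323 bp at Fzd9 to 2674 bp at Fzd4, with Fzd7 (2391 bp) and Fzd2 (2367 bp) next. Median gene length was 24805 bp in Wnt ligands and 4593.5 bp in Frizzled genes, and the median covered share of the window was 9.38% in Wnt ligands and 11.5% in Frizzled genes. At the start, Wnt ligands had a median pileup of 48 fragments, a background of 9.70 and a fold of 4.54. Frizzled genes had 45.5 fragments, a background of 12.5 and a fold of 3.42. Fzd8, which has no listed start, had the highest background at a start or end of all members, 17.05 fragments.

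In the Fgf pathway, the ligands with the most covered length were Fgf18 (4435 bp), which acts in bone and lung, Fgf10 (3225 bp), needed for limb and lung buds, and Fgf5 (3039 bp), an epiblast and hair cycle factor. Fgf1 had the least, 318 bp. Of the receptors, Fgfr1 had 5619 bp from 8 peaks, Fgfr4 had 4343 bp, Fgfr3 had 2608 bp and Fgfr2 had 2539 bp. Peaks at the start had a median of 45.5 fragments in Fgf ligands, with the unmarked Fgf1 and Fgf9 counted as 0, and 38.5 in Fgf receptors.

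In the Bmp pathway, Bmp5 (5488 bp in 10 peaks), Bmp6 (5054 bp) and Bmp7 (3874 bp) had the most covered length among ligands, and Bmp2 the least (2553 bp). Bmpr1b had 6837 bp in 10 peaks, the most of any member, over a gene of 332451 bp. The type II receptor Bmpr2 had 2178 bp and the type I receptor Bmpr1a had 1676 bp. In the Hedgehog pathway, the ligands Shh and Ihh, an organiser of growing bone, had 2139 bp and 1725 bp, and the receptor Ptch1 and the transducer Smo had 2951 bp and 2013 bp. Shh had 7 separate peaks with folds from 2.12 to 3.76 on backgrounds from 7.93 to 15.0 fragments, and 162 bp covered at its fuller end. None of them reached a fold of 5.

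The highest folds lay mostly away from starts, on low backgrounds. Fzd6, a planar polarity receptor, had a fold of 14.1 in its flank (chr15:39042040-39042624), with 43 fragments over the lowest background of the list, 2.11 fragments. Bmpr1b had 13.2 at a listed start (chr3:141931214-141931737), with 40 fragments over 2.11. The 3 listed starts of Bmpr1b lie at least 187321 bp inside the annotated gene. Wnt16, a ligand that maintains cortical bone, had 12.8 inside the gene (chr6:22297649-22298427), with 42 fragments over 2.35. The flank peak of Fzd6 also came within 1 kb of a start or end of Gm7194. Of the 244 pairs of member and peak, ligands had 72 at the start or an end, 79 inside and 14 in the flanks, and receptors had 33, 33 and 13. Inside peaks had a median fold of 4.42 in ligands and 4.33 in receptors, and start peaks 4.17 in ligands and 3.43 in receptors. The lowest background of the list, which 31.1% of all peaks had, was that of 8 of 79 inside peaks of ligands (10.1%) and 8 of 33 of receptors (24.2%).

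Most other genes of these pathways were marked too. Of 92 such genes, all had a peak in body or flanks, against 88.3% of all protein-coding genes. At the start or an end 88 (95.7%) had one, against 73.6%, and 43 (46.7%) were in a wide domain, against 17.9%. Their median start background was 8.40 fragments, against 6.02 in all marked genes. By pathway, a peak at the start or an end was found for 37 of 39 Wnt, 14 of 14 Fgf, 25 of 25 Bmp and 12 of 14 Hedgehog genes. Those without were Dkk4 and Axin1, which restrain Wnt signalling, and Cdon and Gpr161, a Hedgehog co-receptor and a negative regulator at the cilium. By kind, 18 of 19 receptors and co-receptors, 20 of 21 secreted regulators and 38 of 40 intracellular components were marked, as were 5 of 5 other ligands and 5 of 5 genes of ligand processing. Wide domains held 11 of the receptors and co-receptors (57.9%), 7 of the secreted regulators (33.3%) and 22 of the intracellular components (55.0%). They held 0 of the 5 other ligands and 2 of the 5 genes of ligand processing.

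The largest covered lengths among these other genes were those of Lgr5 (11542 bp in 17 peaks), a receptor for R-spondins, and Ror2 (10526 bp in 13 peaks), a Wnt5a receptor. Kl (5785 bp), a co-receptor for Fgf23, and Spred2 (5775 bp), a Ras pathway inhibitor, led the Fgf genes. Smad9 (5708 bp), a signal transducer, and Acvr2b (5068 bp), a type II receptor, led the Bmp genes, and Boc (5841 bp), a co-receptor, and Gli1 (5068 bp), a transcription factor, led the Hedgehog genes.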

How the data were processed

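H3K4me3 and IgG CUT&RUN libraries were made from sorted cells, 1 each, and only the H3K4me3 peak list was analysed. The submitters' processing notes name MACS2 2.1.0, deepTools 3.5.1, Bowtie2 2.5.0, bedtools 2.27.1, SAMtools 1.16.1 and Trim Galore, and the builds mm10 and sacCer3, with roles and settings not given in the sources used here. For each peak the authors deposited a summit fold enrichment (a ratio of pileup over local background), the −log10 p, the −log10 q and a score. These are the authors' own values and were used to describe and rank peaks of this list.

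Whole-number pileups and backgrounds were solved from the fold, taken as (pileup + 1)/(background + 1), and from the Poisson −log10 p, for 135053 of 135064 peaks within 0.0001. Backgrounds above the lowest, 2.11 fragments, were whole multiples of 158 bp over 10000 bp, within 0.05 steps, for 93075 of 93075 peaks. Such steps need no scaling between libraries, so the background was read as coverage of the H3K4me3 library over 10 kb. The names of the peaks contain an IgG label, how the control entered peak calling is not known, and a control of equal depth would give the same steps, so IgG coverage as the background was not excluded. Library depth: not given in the sources used here. No subtraction of IgG was assumed.

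Gene bodies came from a RefSeq gene table of GRCm38.p6 and listed starts and strands from a RefSeq promoter table of that build. All 59 members matched by symbol and 42 had a listed start. A peak with a −log10 q of at least 2, which removed 0 peaks, counted with 1 shared base. The start window was 1000 bp either side, and with both ends used the fuller end gave the covered length. Promoter counts used the 5′-most listed start. Fragments carry no molecular identifiers here, so Wilson and Poisson intervals cover counting error only. No p-value was made from 1 library.

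The members and lists were chosen with earlier results of these data known. Named members were, per pathway and role, the 3 with the largest and the 1 with the smallest covered length, the 3 of highest fold and of highest pileup, and those in wide domains. Of other pathway genes, the 2 per pathway with the largest covered length were named, and further genes were named after their values were seen. Scripts were tested on simulated data: 8003 of 8003 pileups were recovered and 205 of 205 genes under 200 planted peaks were called among 21887, with 0 extra. The software was scipy 1.17.1, pandas 2.3.3, numpy 2.4.6 and matplotlib 3.10.9 under Python 3.11.15.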

Additional observations from a re-analysis of the deposited data

How the results depend on the processing

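Of 146 comparisons of a result with an alternative setting, 130 were classed as close to the value reported and 16 as moved. The close class was broad and included clear drops. A −log10 q of at least 10 left 30 ligands and 14 receptors with a peak at the start or an end. A fold of at least 5 left 29 ligands with any peak. Summits inside the window gave receptors 769 bp covered at the start. Some comparisons could not move, such as the median highest fold under a fold limit of 3. With a fold of at least 5, ligands at the start numbered 16, and receptors numbered 10 with any peak and 6 at the start. The median covered length was then 1008 bp in ligands and 331 bp in receptors, and 0 bp at the start in both, with median start pileups of 0 and a median highest pileup of 15 in receptors. A start window of 500 bp gave a covered length of 607.5 bp in ligands and 564 bp in receptors, in a window of fewer bases. The gene body alone gave receptors 1209 bp, and a −log10 q of at least 10 gave them 1541 bp. A join gap of 3000 bp gave 11 ligands in wide domains and a gap of 500 bp gave 4 receptors. The cause of these shifts was not tested. The following settings were added after the values were seen. Without peaks that come within 1 kb of a start or end of another protein-coding gene, 18 of 19 receptors kept a peak, Fzd4 being the exception, and 40 of 40 ligands did. From the annotated 5′ end, 17 ligands and 9 receptors were in wide domains, against 16.5% of all genes. No paired analysis was possible because there was 1 library and no comparison between samples.

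Limits are that 1 library gives no spread between replicates, that receptors with a listed start number 14, and that pileups at single summits are small counts. Shares and medians over genes of 1 library describe that library.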
